A study of Mus musculus with 6 samples.

Results

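The small leucine-rich proteoglycans studied here are 10 genes of secreted matrix proteins, Dcn, Bgn, Aspn, Ecm2, Fmod, Lum, Prelp, Omd, Ogn and Podn, among 18194 genes measured. They were taken by name: every probe set annotated with exactly 1 of these symbols was used, 22 of 45101 in all, and each gene is represented by its probe set with the highest mean. Male Black Swiss mice, 8 to 10 weeks of age, underwent transverse aortic constriction (TAC), in which a tightened aorta puts the left ventricle under pressure overload, or a sham operation, with 3 mice given per surgery. Left ventricular cells were collected 1 week later, sorted, and profiled on Affymetrix arrays. There was 1 array for each of 6 groups: Tie2-Cre traced fibroblasts, untraced fibroblasts and endothelial cells, each from sham and from TAC hearts. Cre in this line follows the Tek promoter, so tracing marks cells in which that endothelial promoter is or has been active. The labels used here do not give the reporter allele, the sorting markers, or whether the RNA of the 3 mice was pooled. The p-values below therefore measure only the spread between these arrays, which may be partly technical. For the cell types that spread is between sham and TAC values, so it holds the difference between the surgeries.

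Small leucine-rich proteoglycans have a core of leucine-rich repeats, and most carry chains of chondroitin, dermatan or keratan sulfate. Many of them bind collagen fibrils and set their thickness and spacing, and some bind growth factors such as TGF-beta. In the heart they are known as products of fibroblasts and as parts of the collagen network that grows in fibrosis.

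All levels and differences are on the log2 scale of the deposited probe set intensity, so a difference of 1 is a 2-fold difference. Array medians lay between 6.74 and 6.85. The labelled cell types carried their defining markers. Pdgfra, a fibroblast receptor gene, ranged from 12.03 to 12.56 over the 4 fibroblast arrays, with 7.63 and 8.72 on the endothelial sham and TAC arrays. Pecam1, an endothelial junction gene, stood at 13.55 and 13.43 on the endothelial arrays, while the fibroblast arrays lay between 6.76 and 7.98. Tek itself, whose promoter drives the Cre, separated the cell types less: it stood at 12.63 and 12.38 on the endothelial sham and TAC arrays and at 11.76 and 10.70 on those of traced and 11.91 and 11.14 on those of untraced fibroblasts. The endothelial TAC array stood apart from the endothelial sham array in matrix genes and in most fibroblast markers examined. Each result that rests on that TAC array is therefore given beside the sham values. The untraced TAC array had ribosomal RNA controls at 12.04 against 14.11 to 14.64 on the other arrays. Spike-in controls stood at 12.39 and 12.54 on the endothelial arrays and at 10.93 to 11.49 on the fibroblast arrays, and the part of both in the results was not tested.

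The proteoglycan genes were mostly genes of the fibroblast arrays, where 8 of the 10 had a lowest fibroblast value above their highest endothelial value, as did 37.8% of all 12257 detected genes. The reverse held for 0 members and 19.9% of genes. Fmod and Ecm2 were the exceptions. Within fibroblasts, Fmod passed 2-fold upward after TAC in traced and untraced cells alike, as did 4.33% of genes detected in fibroblasts. The other 9 members did not. On the endothelial TAC array, 8 of the 10 stood at least 2-fold above the endothelial sham array, and Ecm2 stood more than 2-fold below it, beside 7.6% and 1.43% of all genes. On that array 10 of 11 fibroblast markers also stood at least 2-fold above their sham level.

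**Figure D1:**
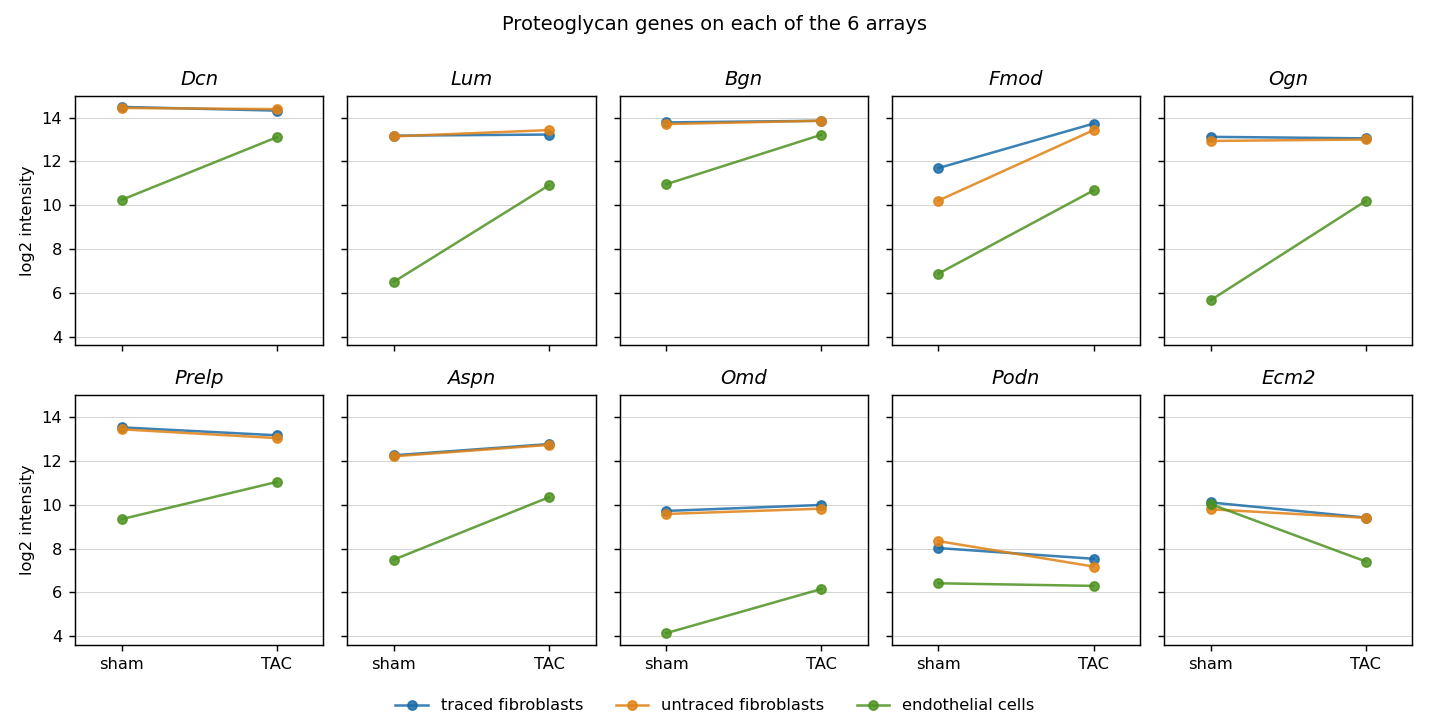
Log2 intensity of each of the 10 genes on the sham and TAC arrays, 1 array per point, with lines joining the 2 arrays of a population (blue, traced fibroblasts; orange, untraced fibroblasts; green, endothelial cells). Both fibroblast lines climb for Fmod, the untraced one drops for Podn and the rest stay within 2-fold, while the endothelial line climbs for 8 genes, is flat for Podn and drops for Ecm2; levels of different genes are not comparable, since each comes from its own probe set.

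Decorin, biglycan and asporin are the closely related class I members, and decorin and biglycan bind both collagen and TGF-beta. Dcn stood at 14.49 and 14.45 on the sham arrays of traced and untraced fibroblasts, at 14.32 and 14.39 on their TAC arrays, and at 10.25 and 13.11 on the endothelial sham and TAC arrays. Bgn stood at 13.78 and 13.71 on the fibroblast sham arrays, at 13.86 and 13.86 on the TAC arrays, and at 10.96 and 13.22 on the endothelial arrays. Both were high on all fibroblast arrays at either surgery, above the 99th percentile of each, and the endothelial TAC array came close to them. Aspn, which encodes a collagen-binding protein that can compete with decorin, stood at 12.26 and 12.22 at sham and at 12.78 and 12.74 after TAC in the fibroblasts. On the endothelial arrays Aspn stood at 7.50 at sham and 10.35 after TAC, so its fibroblast and endothelial arrays did not overlap. Ecm2, a larger matrix protein gene with leucine-rich repeats, behaved unlike these: it stood at 10.11 and 9.80 at sham and at 9.42 and 9.41 after TAC in fibroblasts, and at 10.03 and 7.41 on the endothelial arrays. The endothelial sham array thus lay within the range of the fibroblast arrays for Ecm2, and the endothelial TAC array lay below all of them.

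Class II holds fibromodulin, lumican, the basement membrane anchor PRELP and osteomodulin, which can carry keratan sulfate or tyrosine sulfate. Fmod, which encodes a collagen-binding protein that modulates crosslinking, stood at 11.70 and 10.21 on the sham arrays of traced and untraced fibroblasts, at 13.73 and 13.43 on their TAC arrays, and at 6.87 and 10.68 on the endothelial arrays. Its 2 TAC fibroblast arrays lay above both sham arrays, and the endothelial TAC array lay above the untraced sham fibroblasts. Lum, a regulator of collagen fibril assembly, stood at 13.18 and 13.15 at sham, at 13.23 and 13.43 after TAC, and at 6.50 and 10.92 on the endothelial arrays. Prelp stood at 13.54 and 13.45 at sham, at 13.18 and 13.05 after TAC, and at 9.35 and 11.05 on the endothelial arrays. Both genes were high on every fibroblast array, and Lum stood below the array median on the endothelial sham array. Omd, known as a keratan sulfate proteoglycan of mineralised tissue, stood at 9.72 and 9.58 at sham, at 9.99 and 9.82 after TAC, and at 4.13 and 6.15 on the endothelial arrays, where both values lay below the array median.

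Osteoglycin, or mimecan, belongs to class III, and podocan forms a class of its own with a role reported in smooth muscle growth. Ogn stood at 13.12 and 12.94 on the sham arrays of traced and untraced fibroblasts, at 13.06 and 13.00 after TAC, and at 5.66 and 10.20 on the endothelial arrays. Podn stood at 8.02 and 8.34 at sham, at 7.53 and 7.18 after TAC, and at 6.41 and 6.29 on the endothelial arrays. Ogn thus had a wide gap between fibroblasts and endothelial sham cells, while Podn stood between the 54.9th and 66.5th percentiles of the fibroblast arrays and below the median of both endothelial arrays.

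The genome places these genes in groups. In the RefSeq gene table of the GRCm38.p6 build, Ecm2, Aspn, Omd and Ogn are consecutive neighbours on chromosome 13, all on the plus strand and within the span of Cenpp, a centromere protein gene on the minus strand. Dcn and Lum are neighbours on chromosome 10, Prelp and Fmod on chromosome 1, while Bgn lies on the X chromosome and Podn on chromosome 4. Neighbours did not always share a pattern: Aspn, Omd and Ogn stood far lower on the endothelial sham array than in fibroblasts and Ecm2 did not, and Fmod was higher after TAC in fibroblasts where Prelp was not. Cenpp itself ranged from 7.71 to 8.22 over the fibroblast arrays, with 5.61 and 6.38 on the endothelial sham and TAC arrays, below the array median on both.

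The 250 bases upstream of the start are shown for the 4 neighbours of chromosome 13, because 1 of them differs from the other 3, and for Fmod, the member with the largest TAC difference in fibroblasts. They are RefSeq sequences of the GRCm38.p6 build, which held 8 of the 10 genes (Dcn and Lum were not listed), and each is written 5′ to 3′ on the gene's strand. Capitals mark matches on either strand to a TATA box (TATAAA), an AP-1 site (TGANTCA), a TEAD site (GGAATG), a GC box (GGGCGG) or a CCAAT box (CCAAT).
Ecm2 (chr13:49504560-49504809, plus strand): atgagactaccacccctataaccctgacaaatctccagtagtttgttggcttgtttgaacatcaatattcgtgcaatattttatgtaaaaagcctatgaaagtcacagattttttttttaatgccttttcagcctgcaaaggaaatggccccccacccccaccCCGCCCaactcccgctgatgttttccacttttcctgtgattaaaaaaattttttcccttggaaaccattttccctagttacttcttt
Aspn (chr13:49544193-49544442, plus strand): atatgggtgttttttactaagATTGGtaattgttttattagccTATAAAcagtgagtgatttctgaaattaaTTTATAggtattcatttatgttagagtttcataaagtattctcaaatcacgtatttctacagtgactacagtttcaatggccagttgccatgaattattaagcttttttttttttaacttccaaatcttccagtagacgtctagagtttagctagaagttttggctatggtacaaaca
Omd (chr13:49582212-49582461, plus strand): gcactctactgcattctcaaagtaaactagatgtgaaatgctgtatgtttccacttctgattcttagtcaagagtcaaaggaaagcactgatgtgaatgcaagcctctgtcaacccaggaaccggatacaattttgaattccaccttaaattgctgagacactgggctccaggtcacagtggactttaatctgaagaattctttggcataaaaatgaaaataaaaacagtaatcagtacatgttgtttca
Ogn (chr13:49607765-49608014, plus strand): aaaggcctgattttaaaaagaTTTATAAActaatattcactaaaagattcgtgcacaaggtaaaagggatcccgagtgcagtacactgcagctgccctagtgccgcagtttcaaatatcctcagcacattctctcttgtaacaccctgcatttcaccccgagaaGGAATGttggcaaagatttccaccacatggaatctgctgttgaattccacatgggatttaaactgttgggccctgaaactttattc
Fmod (chr1:134037004-134037253, plus strand): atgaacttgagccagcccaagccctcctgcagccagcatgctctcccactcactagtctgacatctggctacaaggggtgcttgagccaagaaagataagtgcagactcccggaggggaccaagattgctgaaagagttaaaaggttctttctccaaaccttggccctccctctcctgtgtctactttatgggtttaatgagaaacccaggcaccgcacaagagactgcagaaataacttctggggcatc
The TATA box letters were found in the windows of Aspn and Ogn, in both orientations, and the 2 matches of Ogn overlap each other. Counted from the start, they began at -207 and -178 in Aspn and at -229 and -227 in Ogn. Over all windows the TATA letters on the gene's strand began most often at -29. The GC box was found in the window of Ecm2, the TEAD letters in that of Ogn and the CCAAT letters in that of Aspn. The windows of Omd and Fmod held 0 matches to these 5 motifs. Among all 32851 windows of that length, 12.4% held the TATA box, 6.75% the AP-1 site, 12.6% the TEAD site, 32.7% the GC box and 33.8% the CCAAT box, so these letters are common. The G and C content was 30% for Aspn, 38.4% for Omd, 40% for Ecm2 and 42% for Ogn, against 51.2% for Fmod and a median of 52.4% over all windows. A match is only a description of the letters.

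The first comparison asks which proteoglycan genes distinguish sorted fibroblasts from endothelial cells. For it, the traced and untraced arrays of a surgery were averaged, which leaves 2 values per cell type, sham and TAC. This fit has no term for surgery, so its standard error holds the difference between sham and TAC. Omd was 24.9-fold higher in fibroblasts, a difference of 4.64 (standard error 0.706, limma adjusted p = 0.0198). Prelp was 8.62-fold higher, a difference of 3.11 (standard error 0.614, limma adjusted p = 0.0348). These were the 2 members that passed both limits, 0.05 for the adjusted p and 2-fold for the size, in a fit that called 11.5% of 12257 genes toward fibroblasts and 6.5% toward endothelial cells. The size for Omd rests on dim endothelial values, the lower of them at the 11.8th percentile of its array.

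The differences that did not pass were often larger than that of Prelp. Ogn differed by 5.10 (standard error 1.51, limma adjusted p = 0.0858), Lum by 4.54 (standard error 1.47, limma adjusted p = 0.102) and Aspn by 3.58 (standard error 0.981, limma adjusted p = 0.0725). Fmod differed by 3.49 (limma adjusted p = 0.186), Dcn by 2.74 (limma adjusted p = 0.123), Bgn by 1.71 (limma adjusted p = 0.195), Podn by 1.42 (limma adjusted p = 0.0575) and Ecm2 by 0.96 (limma adjusted p = 0.491). The median over the 10 genes was 3.30, beside 0.22 over all detected genes. The 2 endothelial values entering the standard error, sham and TAC, lay far apart for most of these genes, by 4.54 for Ogn and 4.42 for Lum. Leaving out an endothelial array leaves 1 endothelial value, whose spread is then assumed to be that of the 2 fibroblast values. Without the endothelial TAC array, 7 members passed, beside 14% of all genes: Dcn, Lum, Bgn, Ogn, Prelp, Aspn and Omd. Without the endothelial sham array, 5 passed, beside 5.59% of all genes: Lum, Ogn, Prelp, Omd and Ecm2. The difference of Omd was 5.65 without the endothelial TAC array and 3.63 without the endothelial sham array, and that of Prelp 3.96 and 2.26. With surgery as a block, 8 passed, all except Bgn and Ecm2, beside 18.7% of all genes.

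Taken within each surgery, with no test, the gap between fibroblasts and endothelial cells was wider at sham for 9 members on the probe sets used. At sham it was 7.37 for Ogn, 6.66 for Lum, 5.52 for Omd, 4.75 for Aspn, 4.22 for Dcn, 4.15 for Prelp, 4.08 for Fmod, 2.79 for Bgn and 1.77 for Podn. After TAC the same gaps were 2.83, 2.41, 3.75, 2.41, 1.25, 2.07, 2.90, 0.64 and 1.06. For Ecm2 the gap was -0.08 at sham and 2.0 after TAC, so it was wider after TAC. At least a 2-fold excess in fibroblasts was thus present for 9 of the 10 at sham (all but Ecm2), against 23.3% of all detected genes, and for 9 after TAC (all but Bgn), against 17.6%. A 2-fold excess in endothelial cells was present for 0 members at either surgery, against 10.1% of genes at sham and 9.6% after TAC. These values share their arrays with the TAC differences given below. Under the mean of both its probe sets the sham gap of Ecm2 changed sign, to 0.15. The gap of Fmod was wider at sham on 1 of its 6 probe sets, the one used. Its probe set not marked for possible cross-hybridisation gave 2.72 at sham and 3.55 after TAC.

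The second comparison asks how the proteoglycan genes of fibroblasts differed between TAC and sham hearts. Fmod stood 2.03 higher after TAC in traced fibroblasts, a 4.1-fold difference, and 3.22 higher in untraced fibroblasts, a 9.32-fold difference. Its mean difference of 2.63 was the 108th highest of 11623 genes detected in fibroblasts. Each population has 1 array per surgery, so its own difference has no test. With the traced and untraced arrays as the only replicates of a surgery, Fmod passed (mean difference 2.63, standard error 0.389, limma adjusted p = 0.00164; 0.000673 with population as a block). In these fits 1 member was called higher and 0 lower, beside 5.22% and 2.44% of genes (5.23% and 2.5% with the block). The arrays of a surgery may share hearts, and their spread leaves out that between operations, so these p-values may be too small. In traced fibroblasts 1 member was at least 2-fold higher and 0 were lower, beside 6.19% and 2.66% of all detected genes. In untraced fibroblasts the counts were 1 and 1, the lower being Podn, beside 4.98% and 2.95%. Past 2-fold in both populations were 1 higher and 0 lower members, beside 4.33% and 1.79% of genes.

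**Figure D2:**
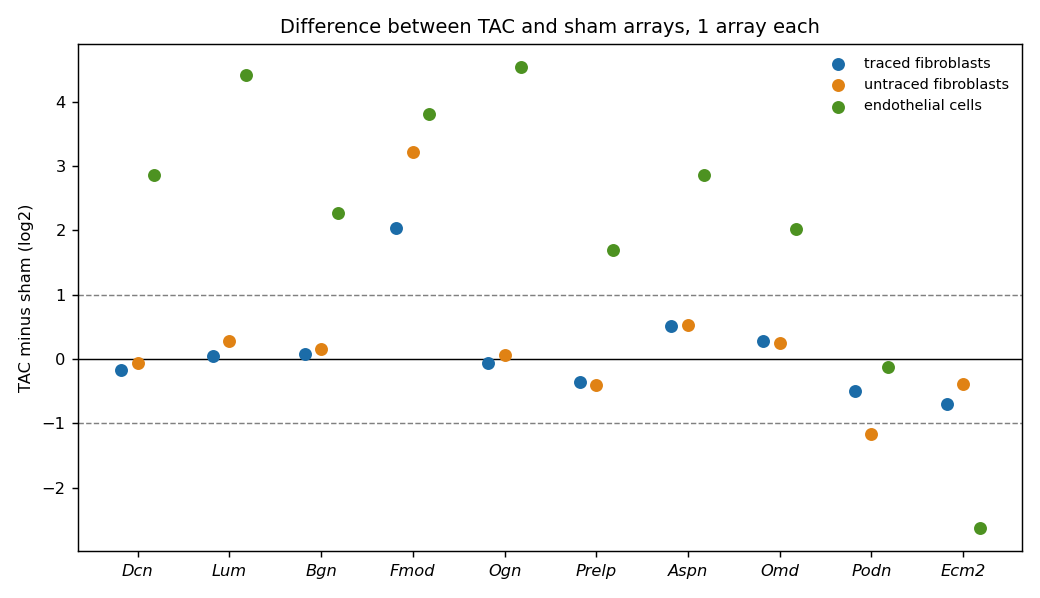
TAC minus sham difference in log2 intensity for each gene in traced fibroblasts (blue), untraced fibroblasts (orange) and endothelial cells (green), each point 1 array against 1, with dashed lines at 2-fold. Among fibroblast points, those of Fmod stand above 2 and the untraced point of Podn stands below -1; the endothelial points of 8 genes lie above 1 and that of Ecm2 at -2.62.

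The Fmod difference appeared on each of its 6 probe sets. It ranged from 2.03 to 2.73 in traced and from 3.13 to 3.61 in untraced fibroblasts. The probe set used carries a suffix that marks possible cross-hybridisation. The 1 probe set of Fmod without such a suffix stood at 9.36 and 8.15 at sham and at 12.09 and 11.70 after TAC in traced and untraced fibroblasts. It gave differences of 2.73 and 3.56, in the same direction as the others.

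Dcn, Bgn, Lum and Ogn, near the top of every fibroblast array, differed little between the surgeries. Traced and untraced fibroblasts gave -0.17 and -0.06 for Dcn, 0.08 and 0.15 for Bgn, 0.05 and 0.29 for Lum and -0.07 and 0.07 for Ogn. Of these 8 values the farthest from 0 was 1.22-fold (Lum, untraced), and the signs of the traced values of Bgn and Lum and of the untraced value of Dcn changed under another scaling of the arrays. Aspn stood 0.51 and 0.52 higher after TAC (limma adjusted p = 0.049, under the 2-fold limit) and Omd 0.27 and 0.24 higher, while Prelp stood 0.36 and 0.40 lower, each alike in the 2 populations but under 2-fold. Podn gave -0.49 and -1.16 (limma adjusted p = 0.0166 for a mean of -0.83, also under 2-fold). Ecm2 gave -0.69 and -0.39 (limma adjusted p = 0.0603 for a mean of -0.54). With population as a block the limma adjusted p was 0.0277 for Ecm2 and 0.0222 for Aspn, with both means under 2-fold. The median over the members was -0.01 in traced and 0.11 in untraced fibroblasts, beside 0.08 and 0.02 over all detected genes.

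Dcn has a second, dimmer probe set that did not follow the first. On it, Dcn stood at 9.63 and 9.21 on the sham arrays of traced and untraced fibroblasts, at 8.25 and 7.76 after TAC, and at 4.74 and 4.68 on the endothelial arrays. It thus gave TAC differences of -1.37 and -1.45 in fibroblasts and -0.05 in endothelial cells, where the main probe set gave -0.17, -0.06 and 2.86. What part of the transcript this probe set reads is not given in the tables used here. Probe sets of the other members disagreed less in fibroblasts: Aspn gave a mean TAC difference of 0.52 to 0.76, Ecm2 -0.87 to -0.54, Prelp -0.38 to -0.21 and Bgn 0.07 to 0.11.

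**Figure D3:**
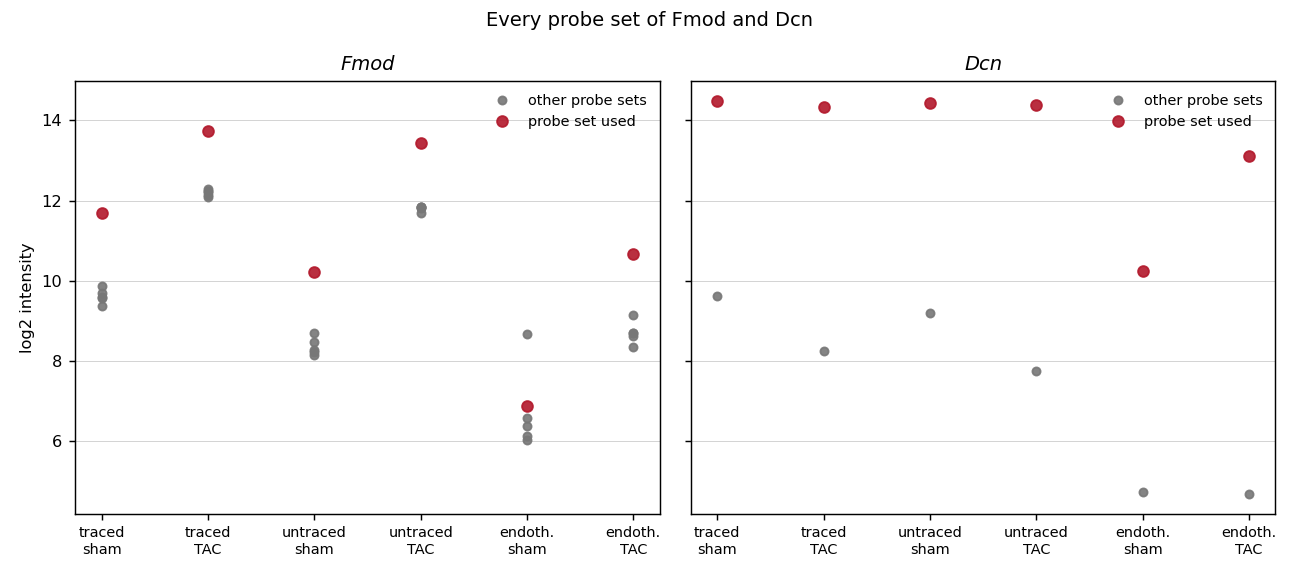
Log2 intensity of every probe set of Fmod (6) and Dcn (2) on the 6 arrays, with the probe set that represents the gene in red and the others in grey. For Fmod all 6 stand higher on the TAC arrays of both fibroblast populations, while for Dcn the grey probe set is lower after TAC in fibroblasts and the red one is nearly level.

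The third comparison asks whether traced and untraced fibroblasts differ in these genes. At sham, Fmod stood 1.48 higher in traced fibroblasts (2.8-fold), the 15th highest difference of 11623 genes, and its probe sets ranged from 1.18 to 1.48. After TAC the Fmod difference was 0.30, with a range of 0.30 to 0.48 over the probe sets. The TAC difference of Fmod was accordingly 1.19 smaller in traced than in untraced fibroblasts, a gap that was not tested. The other 9 members differed by -0.32 to 0.31 at sham and all 10 by -0.20 to 0.36 after TAC. In all, the sham arrays had 1 member past 2-fold on the traced side, beside 0.37% of all detected genes, and 0 on the untraced side, beside 0.404%. After TAC the counts were 0 and 0, beside 0.361% and 0.112%. At both surgeries together 0 members reached 2-fold in either direction, beside 0.0344% in each direction.

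Other cell types' markers were not level across the fibroblast arrays. The summed intensity of 7 macrophage markers was 1397 on the traced and 914 on the untraced sham array, and 1003 and 635 after TAC. Cx3cr1 carried this order of the surgeries: without it the sums were 414 and 369 at sham and 668 and 491 after TAC. Of these markers Adgre1, Ptprc, Fcgr1 and Mrc1 lay below the array median on all fibroblast arrays. The 10 endothelial markers summed to 8733 and 8718 at sham and to 6312 and 6183 after TAC, of which Tek and Eng made up most (1217 and 1375 at sham and 947 and 1143 after TAC without them). Erg went the other way, by 1.79 and 1.62. The 7 mural cell markers summed to 5047 and 5720 at sham and to 3257 and 2767 after TAC. In bulk samples such as these, fewer cells of a type and less RNA per cell cannot be told apart, and the part of other cells in the Fmod difference was not tested.

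The fourth comparison asks how endothelial cells of TAC hearts differed from those of sham hearts. Ogn stood 4.54 higher on the TAC array (23.2-fold), Lum 4.42 (21.3-fold), Fmod 3.81 (14.0-fold), Dcn 2.86 (7.27-fold), Aspn 2.85 (7.23-fold), Bgn 2.26 (4.8-fold), Omd 2.02 (4.06-fold, or 1.06 on the log2 scale with an offset of 32, since both values are dim) and Prelp 1.70 (3.25-fold). Podn differed by -0.12. Ecm2 gave -2.62 (6.16-fold lower), the third lowest difference of 11157 genes detected in endothelial cells. Among those genes 10.9% were at least 2-fold higher and 1.83% at least 2-fold lower. Omd and Podn were not above the median of either endothelial array, and Lum and Ogn passed that filter only through the TAC array. Over all 18194 genes with no filter, 7.6% were at least 2-fold higher and 1.43% lower, beside 8 and 1 of the 10 members. The second probe set of Ecm2 gave -1.48, and the probe sets of Fmod gave 0.49 to 3.81.

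Fibroblast markers moved in the same direction on the endothelial TAC array. Of 11 fibroblast markers, 10 stood at least 2-fold higher there than on the endothelial sham array, with a median of 3.20. Their summed intensity was 3413 on the endothelial sham array and 37400 on the endothelial TAC array, against 93834 to 102827 on the fibroblast arrays. Tcf21 and Islr lay below the median of the endothelial sham array, and all 11 lay above that of the TAC array. The 10 endothelial markers summed to 98285 at sham and 83111 after TAC, and 0 of them differed by 2-fold. Macrophage markers summed to 404 and 722, with 0 of the 7 above the median of the sham array and 2 above that of the TAC array. Their differences were 1.74 for Csf1r, 1.3 for Cd68, 1.04 for Mrc1, 0.14 for Cx3cr1, 0.11 for Adgre1, -0.01 for Fcgr1 and -0.58 for Ptprc. Mural markers summed to 14232 and 8437. What part RNA of fibroblasts or of these other cells has in the endothelial values of the proteoglycan genes was not tested.

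Set against the fibroblasts of the same surgery, the endothelial arrays held different shares of each gene. At sham the endothelial intensity was 0.603% of the mean fibroblast intensity for Ogn, 0.989% for Lum, 2.18% for Omd, 3.73% for Aspn, 5.21% for Fmod, 5.35% for Dcn, 5.63% for Prelp, 14.5% for Bgn, 29.2% for Podn and 105.1% for Ecm2. After TAC it was 64.2% for Bgn, 47.5% for Podn, 42.1% for Dcn, 24.9% for Ecm2, 23.9% for Prelp, 18.8% for Aspn, 18.7% for Lum, 14.0% for Ogn, 13.3% for Fmod and 7.4% for Omd. The members thus did not reach a single share after TAC. The fibroblast markers spread over a like range only with the collagens counted: Col1a1 stood at 51.7%, Col1a2 at 54.0% and Col3a1 at 64.5%. Of the other markers Mfap5 stood highest, at 31.5%, while Pdgfra stood at 9.7% and Tcf21 at 9.94%. The median was 15.9% for the 11 markers and 21.3% for the 10 members.

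**Figure D4:**
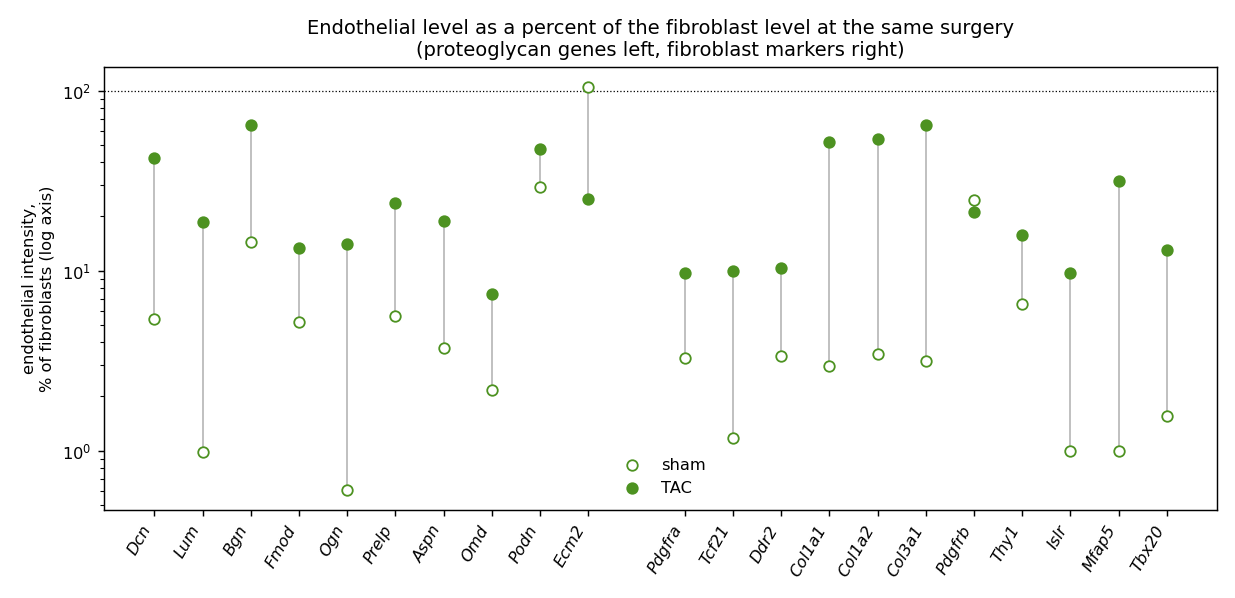
Endothelial intensity as a percent of the mean fibroblast intensity at the same surgery, on a log axis, for the 10 proteoglycan genes (left) and 11 fibroblast markers (right); open circles are sham and filled circles TAC, and the dotted line marks 100%. After TAC the proteoglycan genes lie between 7.4% and 64.2% and the markers between 9.69% and 64.5%; Ecm2 and Pdgfrb are the genes whose filled circle lies below the open one.

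The genes whose 6-array patterns lay nearest to the members were sought among 12247 other detected genes, by the Euclidean distance between log2 values centred on each gene's mean. Nearest to the median pattern of the members were Pcolce, an enhancer of procollagen processing (distance 0.25), Igf1, a growth factor gene (0.27), Tmem107 (0.37), Rcn3 (0.43) and Ifi27l2a (0.44). Nearest to single members were Vcan, the large proteoglycan versican, for Lum (0.25) and Mgp, the matrix Gla protein gene, for Bgn (0.20). Loxl1, a lysyl oxidase, was nearest to Ogn (0.35) and Thbs4, a thrombospondin, to Fmod (0.82). For other members they were Car13 for Dcn (0.40), Gstm5 for Prelp (0.25), Tmem107 for Aspn (0.33) and Gpr153 for Omd (0.28). Fbxo31 was nearest to Podn (0.21) and BC023105 to Ecm2 (1.02). Among the members themselves Lum and Ogn lay closest together (0.71), and Ecm2 and Ogn farthest apart (6.98). These distances rest on 6 arrays of 2 cell types and are a description.

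Proteoglycans depend on partners that build their chains, bind them or cut them, and 6 lists of such genes were examined. Of 23 detected genes of chondroitin and dermatan sulfate synthesis, 8 passed toward fibroblasts and 1 toward endothelial cells, with a median of 0.88 beside 0.22 over all detected genes. For this and the next lists, the fit called 11.5% of all detected genes toward fibroblasts and 6.5% toward endothelial cells. Dse, the epimerase that makes dermatan sulfate, differed by 5.11 (limma adjusted p = 0.0176), Ust, a uronyl sulfotransferase, by 3.85 (limma adjusted p = 0.00382), and Chst15, a chondroitin sulfotransferase, by -3.38 (limma adjusted p = 0.0179). Both endothelial values of Dse (4.23 and 6.27) and Ust (4.54 and 4.46) lay below the array median, so the sizes for these 2 rest on dim values. Chst15 was the 1 gene of this list at least 2-fold higher after TAC in both fibroblast populations, by 1.56 in traced and 1.05 in untraced fibroblasts. Ugdh, which makes a sugar precursor of the chains, was the 1 gene at least 2-fold higher after TAC in endothelial cells (1.08). The medians of this list for TAC against sham were 0.26 in fibroblasts and 0.26 in endothelial cells.

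Of 8 detected genes of keratan sulfate synthesis, 3 were higher in fibroblasts, among them Chst2, a sulfotransferase (2.44, limma adjusted p = 0.0458), and B4galt1 (1.52, limma adjusted p = 0.0277). On the endothelial side were the galactosyltransferase gene B4galt4 (-2.0, limma adjusted p = 0.0175) and the sialyltransferase gene St3gal1 (-1.30, limma adjusted p = 0.0308). After TAC 0 of the 8 reached 2-fold in both fibroblast populations, and Chst2 stood 1.27 higher in endothelial cells. Of the other family genes 4 were detected over the 6 arrays, and Epyc, a class III member, was higher in fibroblasts (2.60, limma adjusted p = 0.0395), but it lay above the array median on the untraced TAC array alone.

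Of the 11 collagen genes whose products these proteoglycans bind, all were detected, and Col1a1, Col1a2 and Col3a1 are also among the fibroblast markers. In fibroblasts 2 were at least 2-fold higher after TAC in both populations, Col12a1 (3.23 and 2.64) and Col14a1 (1.26 and 1.46), which encode collagens that sit on fibril surfaces, with a list median of 0.31 beside 0.05 over all detected genes. On the endothelial TAC array all 11 stood at least 2-fold higher, with a median of 4.04, led by Col1a1 (4.43) and Col3a1 (4.41). Col6a3, Col12a1 and Col14a1 lay below the median of the endothelial sham array (5.43, 5.45 and 4.05) and passed the filter only through the TAC array. The median of 4.04 is the value of Col6a3. The limma fit called 1 of the 11 higher in fibroblasts, Col5a3 (4.31, limma adjusted p = 0.0179).

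Among 11 detected proteases and inhibitors that act on proteoglycans, 5 were higher in fibroblasts, including the stromelysin gene Mmp3 (4.21, limma adjusted p = 0.00906) and Timp2 (2.91, limma adjusted p = 0.0146). After TAC in fibroblasts 2 of them passed 2-fold upward in each population, Timp1, a metalloproteinase inhibitor gene (1.97 and 2.14), and Adamts4, an aggrecanase gene (1.67 and 1.59). On the endothelial TAC array 4 of 9 detected genes of this list were at least 2-fold higher, with Timp1 at 5.92 and Mmp2 at 3.96. Both lay below the median of the endothelial sham array (4.65 and 6.49) and passed the filter only through the TAC array. Binding partners among growth factors and receptors numbered 19 detected genes, with 7 passing toward fibroblasts and 2 toward endothelial cells. Lrp1, an endocytic receptor for decorin (4.80, limma adjusted p = 0.0183), and Tnxb, a tenascin gene (4.42, limma adjusted p = 0.0224), led one side. Kdr, a VEGF receptor gene (-6.26, limma adjusted p = 0.00635), and Tgfb1 (-1.49, limma adjusted p = 0.0473) made up the other. After TAC, Ccn4, whose product binds decorin and biglycan, stood 4.31 and 4.55 higher in traced and untraced fibroblasts and Fn1 1.63 and 2.01 higher, while Tnxb stood 1.14 and 1.78 lower. In endothelial cells 10 of the 19 stood at least 2-fold higher after TAC, with Ccn2 at 3.13 and Bmp2 at 2.40. Bmp2 (6.96 and 4.56) and Ccn4 (7.54 and 6.17) were above the median of the endothelial TAC array and below that of the endothelial sham array. Both passed the filter only through the TAC array. Beside the endothelial counts of these lists stand 10.9% of all detected genes. Beside the fibroblast counts past 2-fold in both populations stand 4.33% higher and 1.79% lower.

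**Figure D5:**
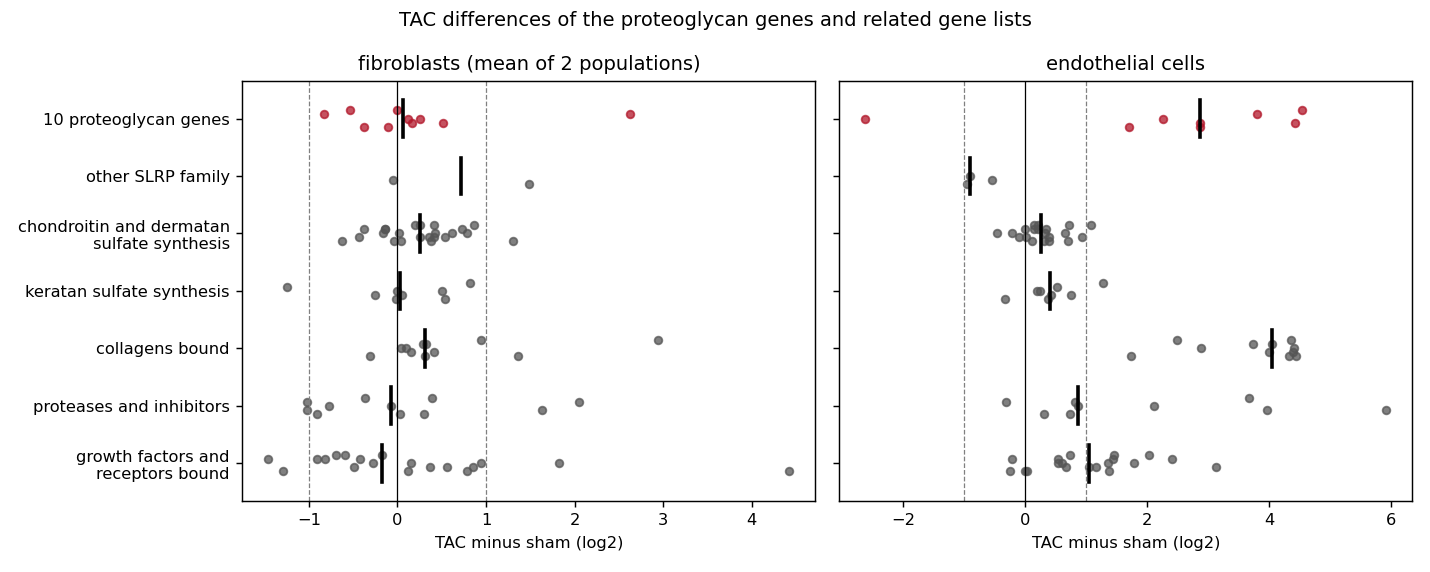
TAC minus sham difference in log2 intensity of each detected gene in the proteoglycan group (red; 10 genes in fibroblasts, 8 in endothelial cells) and in 6 related lists (grey), as the mean of both populations for fibroblasts (left) and for endothelial cells (right), with black bars at the list medians and dashed lines at 2-fold. In fibroblasts the medians of the proteoglycan genes and of the collagens are 0.06 and 0.31, beside 0.05 over all detected genes. In endothelial cells they are 2.86 and 4.04, beside 0.18. Of the genes shown there, Lum, Ogn, Col6a3, Col12a1 and Col14a1 passed the filter only through the TAC array. Omd (2.02) and Podn (-0.12) did not pass it and are left out of the 2.86.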

How the data were processed

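Probe set intensity values deposited by the authors for 45101 probe sets on 6 arrays were used; the submitters' processing notes name RMA, and the sources used here do not give its version or how it was turned back from log2. Intensity values lay between 3.82 and 37205, and log2 was taken with no further normalization. Of 15 pairs of arrays 0 were identical. Symbols came from the platform annotation, updated through RefSeq gene identifiers; 34958 probe sets had 1 symbol. A gene was represented by its probe set with the highest mean and counted as detected where at least 1 of the compared arrays put it above that array's median (12257 genes over 6 arrays, 11623 over the fibroblast and 11157 over the endothelial arrays). The cell type fit used limma (3.58.1, R 4.3.3) with Benjamini-Hochberg adjustment. It was tried on simulated data with independent, equal noise and no difference between surgeries. That trial therefore does not cover the spread between sham and TAC that the real fit holds. Other comparisons set 1 array against 1, with no test, and 2-fold as the counting limit; a limma fit of TAC against sham over the 4 fibroblast arrays, with and without population as a block, was added after seeing the data. For arrays their number limits the precision.

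The members and gene lists were chosen with earlier results of these data known. Named genes were the 10 members, the markers Pdgfra, Tcf21, Col1a1, Pecam1, Cdh5 and Tek, up to 2 genes per list and direction with the largest counted differences, and the nearest genes by pattern. Further lists of mural, macrophage, cardiomyocyte and epicardial markers were measured. Alternatives tried were other probe set rules, scalings, an offset of 32 before log2, other filters, other designs of the fit and leaving out each array.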

Additional observations from a re-analysis of the deposited data

Results flagged for a closer look

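Each difference here is 1 array against 1 and was not tested. Dcn and Prelp were singled out because both fibroblast populations moved one way after TAC and endothelial cells the other: the endothelial difference was 2.86 for Dcn and 1.70 for Prelp, beside fibroblast differences of -0.17 and -0.06 and of -0.36 and -0.40. For Dcn the untraced value was 0.02 after quantile normalization and the second probe set gave -0.05 in endothelial cells, so the opposition did not hold under either. Ecm2 was singled out because the fibroblast minus endothelial difference was 2.0 after TAC and -0.08 at sham. The TAC difference of Ogn was -0.068 in traced and 0.067 in untraced fibroblasts, opposite in sign but near 0. The traced minus untraced difference also changed sign between the surgeries for 4 genes: it was -0.068 after TAC and 0.05 at sham for Dcn, -0.20 and 0.03 for Lum, -0.00275 and 0.07 for Bgn, and 0.36 and -0.32 for Podn. After TAC it was 0.21 for Dcn with the mean of all probe sets and 0.003 for Bgn with upper quartile centring, which ends the change of sign for these 2, and the sham value of Ecm2 was 0.15 with the mean of all probe sets.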

How the results depend on the processing

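No paired analysis was possible by replicate number, because each group has 1 array, numbered 1, but surgery as a block pairs the cell types within a surgery. With that block the fit called 2298 genes higher in fibroblasts, 8 of them members, and with the arrays entered singly 2211 and 8, against 1415 and 2. Leaving out 1 array at a time gave 685 to 1715 genes higher in fibroblasts, 472 to 817 higher in endothelial cells, and 2 to 7 members; both low gene counts came without the endothelial sham array. The difference of Ecm2 between cell types ranged from -0.35 without the endothelial TAC array to 2.27 without the endothelial sham array. At 1.5-fold 1 member, Ecm2, stood lower after TAC in traced fibroblasts, against 0 at 2-fold. Podn was not counted lower in untraced fibroblasts at 4-fold or with an upper quartile filter (0 members against 1), and Fmod was not counted by lineage at 4-fold (0 against 1). Centring arrays on their upper quartile moved the median of all genes by -0.20 for TAC in endothelial cells, by -0.22 for the cell types at sham and by 0.12 for lineage at sham. The cause of these changes was not tested beyond what fewer arrays or genes entail. Dim values limit the sizes for Omd and Podn: with the offset of 32, the endothelial TAC difference of Omd was 1.06 in place of 2.02.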

Other observations

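Family genes outside the 10 members were mostly dim. Kera, which encodes the corneal proteoglycan keratocan and is the next coding gene after Lum on chromosome 10, stood at 3.77 to 4.70 on the 6 arrays and was not detected. Epyc stood at 4.73 and 6.37 on the sham arrays of traced and untraced fibroblasts and at 6.80 and 7.28 after TAC, so both populations were higher after TAC, by 2.06 and 0.91, and the sham arrays differed by -1.63. Optc, which lies beside Prelp on chromosome 1, stood at 7.53 on the endothelial sham array and 6.57 on the endothelial TAC array. Cardiomyocyte markers summed to 6733 and 3628 on the endothelial sham and TAC arrays and to 821 to 1354 on the fibroblast arrays. Epicardial markers summed to 1207 and 1837 and to 253 to 320. Wt1, at 9.79 and 10.52, was by far the highest of them on the endothelial arrays. Msln, Krt19 and Upk1b lay below the median of the endothelial sham array. The endothelial TAC differences were 0.72 for Wt1, 0.94 for Krt19, 0.04 for Msln, 0.01 for Upk1b and -0.44 for Upk3b.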
